A study of Homo sapiens with 6 samples.

Results

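Collagens, laminins, other matrix glycoproteins and proteoglycans, and the enzymes that crosslink collagen were followed as 53 named genes among the 30735 genes listed for PANC-1 cells, an established line from a human pancreatic cancer of ductal type. A gene was included when the Ensembl identifier of its row mapped to a symbol on a list of matrix genes. The rule uses no measured value, but the list was drawn up with earlier results of these data known. RNA-seq values came from 3 samples that received CD73 siRNA and 3 that received a negative control. CD73 is the cell surface enzyme that makes adenosine from AMP, and NT5E is its gene. All 6 samples were grown in DMEM with fetal bovine serum in 6-well plates and transfected without serum with a Lipofectamine reagent, and total RNA was extracted. The labels number the samples of each group 1, 2 and 3. The study describes them as separate knockdown experiments and names a single CD73 siRNA product, and the labels do not say what a number shared by both groups stands for. The p-values measure the spread between these samples of 1 cell line.

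The extracellular matrix of an epithelium has a sheet-like basement membrane and a fibrous interstitial part. Laminin chains assemble as trimers of an alpha, a beta and a gamma chain and are linked by nidogen, perlecan and agrin to a network of collagen IV, whereas collagens I, III and V form fibrils. Lysyl hydroxylases inside the cell and lysyl oxidases outside it modify collagen so that its fibrils can be crosslinked. Pancreatic cancer is known for a dense matrix, most of it laid down by stromal cells, which are not part of a cell line culture.

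Library totals worked out from the values were 15009113 to 16836207 reads. Samples did not group by treatment alone. CD73 siRNA sample 2 and control 2 were the most alike of all pairs, with a chi-square of 6.3 per gene on the read numbers, and control 1 stood farthest from the others, its nearest neighbour being control 3 at 22.3. NT5E was 3.36, 6.85 and 8.22 RPKM in CD73 siRNA samples 1, 2 and 3 and 13.96, 13.87 and 17.14 in controls 1, 2 and 3. The mean was 41.0% of control, with a log2 fold change of -1.23 that passed an unadjusted limma p under 0.01 but not the Benjamini-Hochberg adjustment (adjusted p = 0.303). Of 8 epithelial and ductal markers, KRT8, KRT18 and SOX9 were the most abundant, at 30.0 to 158, 36.3 to 87.0 and 45.4 to 55.5 RPKM. KRT19 was at 3.6 to 5.39 RPKM and MUC1 at 1.435 to 2.71. EPCAM was at 0.582 to 1.71 RPKM and CDH1 at 0.421 to 1.69, while KRT7 did not exceed 0.107 RPKM. Of 3 mesenchymal markers, VIM was at 183 to 263 RPKM, ZEB1 at 5.18 to 9.14 and CDH2 at 4.12 to 4.93. Markers of fibroblasts, leukocytes, endothelium and islets with a row were at or below 0.819 RPKM (RGS5) in every sample.

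RPKM, the reads per kilobase of exon scaled to the library total, is already divided by gene length, so levels can be set side by side between genes. The length is that of all annotated exons merged, which understates a gene with long exons that the cells do not use. On this scale the 53 genes fell into a well expressed part and a part near 0. The mean over the 6 samples was at least 100 RPKM for 1 gene, from 10 to 100 for 17, from 1 to 10 for 9, from 0.1 to 1 for 16 and under 0.1 for 10. In every sample, 26 genes reached 1 RPKM and 25 did not, and only COL7A1 and EFEMP1 crossed that level between samples. The summed level was 765 ± 97.3 RPKM in the CD73 siRNA samples and 802 ± 17.6 in the controls (SD, n = 3 each). COL5A2 ranked 1st by mean, followed by NID1, COL18A1, SDC1, PLOD2, FBLN1, LAMC1, PLOD1, LAMB2, AGRN, LAMA5 and GPC1. In that order the ranges over the 6 samples were separate for COL5A2 and NID1, and for every later pair of neighbours they overlapped. The plot of levels by gene group shows this order.

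**Figure D1:**
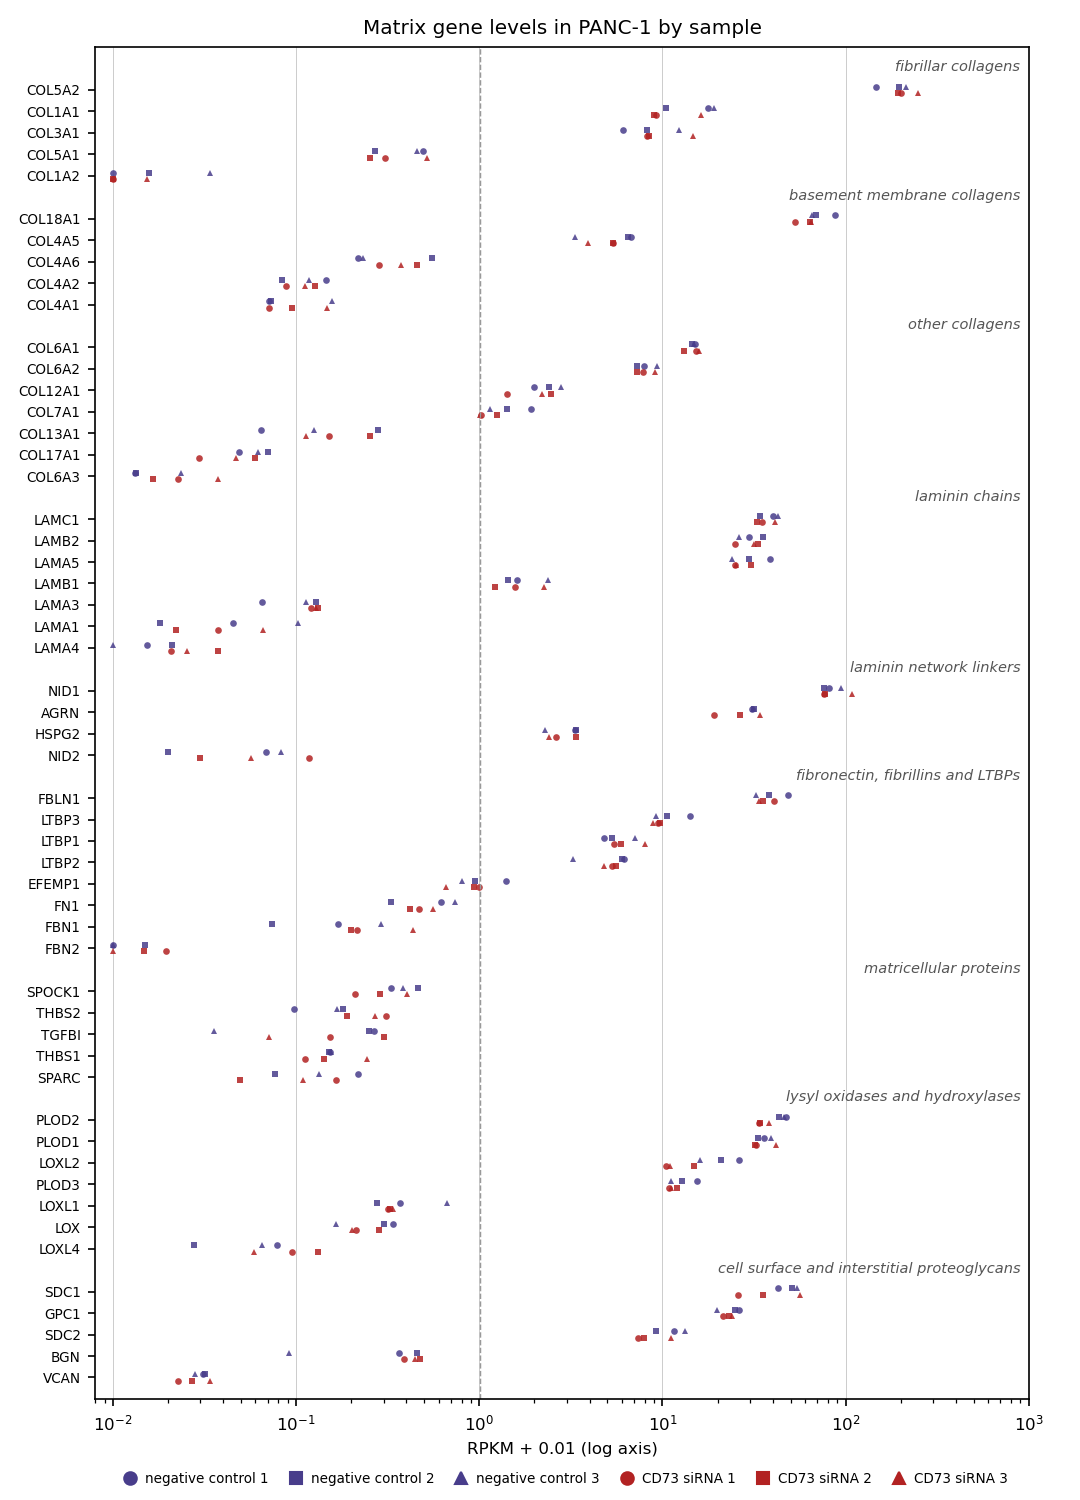
Level of each of the 53 matrix genes in each of the 6 samples, as RPKM plus 0.01 on a log axis, grouped by role; blue symbols are the 3 negative controls, red symbols the 3 CD73 siRNA samples, and circle, square and triangle are numbers 1, 2 and 3. The dashed line marks 1 RPKM. Only COL5A2 lies above 100 RPKM in all 6 samples, and all 5 matricellular genes lie to the left of the line.

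Among the fibrillar collagens, COL5A2 carried most of the message. COL5A2, which encodes a chain of the fibril-nucleating collagen V, was at 199.4, 191.9 and 249.4 RPKM in CD73 siRNA samples 1, 2 and 3 and at 147.2, 194.5 and 212.8 in controls 1, 2 and 3. Number 3 was the highest in both groups, and the groups overlapped. It was 102nd of all 30735 genes by mean level and made up 50.2 to 66.2% of the summed RPKM of the 17 collagens. Its usual partner COL5A1 was at 0.244 to 0.51 RPKM, so the ratio of COL5A2 to COL5A1 was 304 to 786. COL11A1, a chain of the related collagen XI and no member of the list, was at 28.7 to 81.8 RPKM, and COL5A2 exceeded it 3.05 to 5.13 times. COL5A2 (ENSG00000204262) and COL3A1, the gene of collagen III, lie tail to tail on chromosome 2 with 19149 bases between them (COL5A2 at chr2:189031896-189225312 on the reverse strand, GENCODE release 29, GRCh38). COL3A1 was at 6.11 to 14.7 RPKM, and the ratio of the neighbours stayed at 17.0 to 24.2 in all 6 samples.

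Collagen I is normally a trimer with COL1A1 and COL1A2 chains. COL1A1 was at 9.17, 8.97 and 16.2 RPKM in CD73 siRNA samples 1, 2 and 3 and at 17.7, 10.5 and 19.1 in the controls. COL1A2 had 0 to 4 reads per sample. It was at 0 in 3 samples, where a count of 0 allows up to 0.0171 RPKM (3 reads, counting error only), and its highest value was 0.0239 RPKM. Reads were therefore found in every sample for COL1A1, and COL1A2 was at the limit of this depth in both groups.

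Of the basement membrane collagens, COL18A1 was the most abundant. COL18A1, whose C-terminal part is released as endostatin, was at 52.8 to 64.7 RPKM in the CD73 siRNA samples and 65.9 to 88.0 in the controls. In the annotation, 16.4% of its exon bases also lie in exons of SLC19A1 on the opposite strand, and it is not stated whether counting used strand. COL4A1 and COL4A2, the chains of the ubiquitous collagen IV, were at 0.0608 to 0.147 and 0.074 to 0.136 RPKM. COL4A5, a chain of the collagen IV network of kidney and skin, was at 5.33, 5.34 and 3.90 RPKM in the CD73 siRNA samples and 6.74, 6.46 and 3.34 in the controls, with number 3 the lowest in both groups. COL4A6 was at 0.208 to 0.541 RPKM, below COL4A5 by a ratio of 10.7 to 32.4.

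The collagen IV genes are arranged head to head. COL4A1 and COL4A2 start 127 bases apart on chromosome 13, and both were near 0. COL4A5 and COL4A6 start 380 bases apart on chromosome X, or 1416 bases at another COL4A6 start, yet their levels differed by at least the ratio given above. The stretch before the COL4A5 start is shown because it lies between these unequally expressed neighbours (RefSeq, GRCh38.p14, chrX:108439588-108439837, forward strand, 250 bases, 51.2% G and C). Capitals mark the letters CCAAT on either strand, of which there are 2, 1 on each strand. Of 35116 promoter windows of this length, 32.0% hold CCAAT on either strand.

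COL4A5: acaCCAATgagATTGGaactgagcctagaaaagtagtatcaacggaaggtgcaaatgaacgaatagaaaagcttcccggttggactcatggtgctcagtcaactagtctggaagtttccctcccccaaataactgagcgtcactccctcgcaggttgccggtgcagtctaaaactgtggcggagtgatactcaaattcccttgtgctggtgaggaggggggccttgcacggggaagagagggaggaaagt

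Windows were available for 42 of the 53 genes, and 13 of these hold CCAAT, COL4A1, COL4A2, COL4A5 and COL4A6 among them. GGGCGG, the GC box, stands in 32 of the 42 and in 42.6% of all windows. Among the tested genes with a window, GGGCGG was present in 18 of 20 matrix genes and in 76.9% of all 9087, and CCAAT in 4 of 20 and in 42.0%. TATAAA was present in 3 of 20 and in 7.29%. These are matches of letters only.

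The other collagens covered the beaded filament, anchoring fibril and transmembrane types. COL6A1 and COL6A2, chains of the beaded collagen VI, were at 13.1 to 15.7 and 7.23 to 9.30 RPKM, in a ratio of 1.6 to 1.98. The third chain of that trimer, COL6A3, was at or below 0.0272 RPKM, with 1 to 9 reads. COL12A1, a fibril-associated collagen, was at 1.42 to 2.80 RPKM and COL7A1, the anchoring fibril collagen, at 0.993 to 1.90. COL13A1 and COL17A1, both transmembrane collagens, did not exceed 0.268 RPKM.

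The laminin chains formed one nearly balanced set. LAMA5 was at 24.7 to 30.5 RPKM in the CD73 siRNA samples and 23.8 to 38.4 in the controls, LAMB2 at 24.9 to 33.4 and 26.2 to 35.4, and LAMC1 at 32.7 to 41.1 and 33.9 to 42.9. The ratio of LAMA5 to LAMB2 was 0.793 to 1.3, and that of LAMA5 to LAMC1 was 0.555 to 0.963. An alpha, a beta and a gamma chain were thus present at levels of the same order. LAMB1, the alternative beta chain, was at 1.21 to 2.37 RPKM, and LAMB2 exceeded it 11.0 to 27.6 times. The other alpha chains LAMA1, LAMA3 and LAMA4 were at or below 0.122 RPKM.

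Of the linkers between laminin and collagen IV, NID1 and AGRN were well expressed, HSPG2 was lower and NID2 was near 0. NID1, the main nidogen, was at 76.1, 76.7 and 108.5 RPKM in the CD73 siRNA samples and 80.9, 75.8 and 93.8 in the controls, while its paralog NID2 stayed at or below 0.107. AGRN, the heparan sulfate proteoglycan agrin, was at 19.1, 26.4 and 33.9 RPKM in CD73 siRNA samples 1, 2 and 3 and at 30.7, 31.6 and 31.2 in the controls. The controls lay close together, and the CD73 siRNA samples spread from below to above them. HSPG2, perlecan, was at 2.28 to 3.38 RPKM.

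FBLN1, a fibulin of basement membranes and elastic fibres, was at 32.5 to 48.4 RPKM and led its group. The latent TGF-beta binding proteins LTBP1, LTBP2 and LTBP3, which hold latent TGF-beta in the matrix, were at 4.79 to 7.98, 3.25 to 6.14 and 8.83 to 14.1 RPKM. FN1, fibronectin, was at 0.456, 0.411 and 0.549 RPKM in the CD73 siRNA samples and at 0.605, 0.32 and 0.731 in the controls, under 1 RPKM throughout. The fibrillins FBN1 and FBN2 reached 0.425 and 0.00943 RPKM. The 5 matricellular genes of the list, THBS1, THBS2, SPARC, SPOCK1 and TGFBI, were between 0.0256 and 0.455 RPKM. Products of such genes signal to cells more than they build the matrix. Low levels did not hold for all matricellular genes. Outside the list, CCN1 was at 69.75 to 191.3 RPKM and CCN2 at 22.93 to 63.05, while CCN3 did not exceed 0.0713. These were named after their values were seen.

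Of the proteoglycans carried on the cell surface, SDC1, syndecan 1 of epithelial cells, was at 25.8, 35.2 and 56.5 RPKM in CD73 siRNA samples 1, 2 and 3 and at 43.0, 51.2 and 53.9 in the controls. SDC2 was at 7.31, 7.96 and 11.1 RPKM against 11.6, 9.26 and 13.2. GPC1, a glypican held by a lipid anchor, was at 19.95 to 26.2 RPKM in all. The interstitial proteoglycans BGN and VCAN did not exceed 0.466 and 0.024 RPKM.

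The lysyl hydroxylases of the list were all expressed, the lysyl oxidases of the list mostly not. PLOD1, PLOD2 and PLOD3 were at 32.0 to 41.7, 33.8 to 47.3 and 10.8 to 15.5 RPKM. LOXL2 was at 10.5 to 26.1 RPKM, whereas LOX, LOXL1 and LOXL4 did not exceed 0.326, 0.66 and 0.122. PLOD2 (ENSG00000152952), the enzyme that hydroxylates lysines of the collagen telopeptides, lies on the reverse strand of chromosome 3 (chr3:146069440-146163653, GENCODE release 29). The 250 bases before its RefSeq start are shown (GRCh38.p14, chr3:146161185-146161434, reverse strand, 72.4% G and C). PLOD2 was picked because it passed an unadjusted limma p under 0.01 between the groups, though not the adjustment (adjusted p = 0.305). Capitals mark CCAAT, of which there is 1, and ACGTG, the core that hypoxia-inducible factors and other basic helix-loop-helix proteins are known to read, of which there are 2, 1 on each strand. ACGTG is held by 18.5% of all windows, by 29.6% of those of tested genes and by 3 of the 20 tested matrix genes with a window.

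PLOD2: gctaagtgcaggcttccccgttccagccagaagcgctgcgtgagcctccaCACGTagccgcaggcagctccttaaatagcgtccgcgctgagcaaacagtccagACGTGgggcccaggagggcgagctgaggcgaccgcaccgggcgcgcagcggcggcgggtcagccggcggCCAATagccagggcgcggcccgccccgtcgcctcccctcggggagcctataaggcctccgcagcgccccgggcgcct

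CD73 siRNA was compared with the negative control on log2(RPKM + 1), so a fold change of a gene near 1 RPKM is understated. The crosslinking enzymes LOXL2 and PLOD2 were lower with CD73 siRNA, by 0.73 and 0.35 on the log2 scale, and no collagen, laminin, glycoprotein or proteoglycan of the list passed the threshold in either direction. Of the 53 genes, 27 reached at least 1 RPKM in 3 or more samples and were tested in a fit over 12527 genes. None of the 27 depended on 1 group to pass. At an unadjusted limma p under 0.01, the threshold of the study, 2 were lower, against 1.31% of all tested genes, and 0 were higher, against 1.82%. In both directions the background was 3.13%, or 392 genes. At an adjusted p under 0.05 (Benjamini-Hochberg over all tested genes) none of the 27 was called, and the background was 0.00798%, or 1 gene. At an unadjusted p under 0.05 the same 2 were lower, against 4.90% of all tested genes, and 0 were higher, against 7.22%. In these bulk samples, fewer cells that express a gene and less RNA per cell cannot be told apart.

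LOXL2 (ENSG00000134013), a secreted lysyl oxidase that also acts on other matrix proteins, was at 10.5, 14.9 and 11.0 RPKM in CD73 siRNA samples 1, 2 and 3 and at 26.1, 20.9 and 15.95 in controls 1, 2 and 3. Every CD73 siRNA sample was below every control. The means were 12.1 ± 2.42 and 21.0 ± 5.06 RPKM (SD, n = 3 each), with 962 to 2386 reads behind each value. The log2 fold change was -0.73 (SE 0.19, 95% interval -1.18 to -0.28, limma, adjusted p = 0.303). The differences within number 1, 2 and 3 were -1.24, -0.46 and -0.50. The exact two-sided permutation p was 0.1, the smallest that 3 samples against 3 can give. Without control 1, the library that stood apart, the log2 fold change was -0.57, and without CD73 siRNA sample 1 it was -0.64. It was -0.67 without CD73 siRNA sample 3 and -0.72 without control 2. None of these 4 passed an unadjusted p under 0.01, nor did LOXL2 pass with no filter on low values. LOXL2 lies on chromosome 8 and shares 5.22% of its exon bases with ENTPD4 and an antisense RNA.

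PLOD2 was at 33.8, 34.2 and 38.1 RPKM in the CD73 siRNA samples and at 47.3, 43.0 and 45.8 in the controls. The groups did not overlap, and the spread within each was small. The means were 35.4 ± 2.40 and 45.4 ± 2.19 RPKM (SD, n = 3 each), or 77.9% of control, from 4122 to 5805 reads. The log2 fold change was -0.35 (SE 0.10, 95% interval -0.57 to -0.13, limma, adjusted p = 0.305), and the differences within number were -0.48, -0.32 and -0.26. Treatment took 87.4% of the sum of squares of PLOD2 over the 6 samples. This share restates the values by which PLOD2 passed the threshold and adds no support. The exact two-sided permutation p was 0.1, again the smallest possible. Without control 1 the log2 fold change was -0.32, and without CD73 siRNA sample 1 it was also -0.32. It was -0.33 without CD73 siRNA sample 2 and -0.345 without control 3, and all 4 fell short of the threshold. The plot of selected genes shows these values beside other members.

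**Figure D2:**
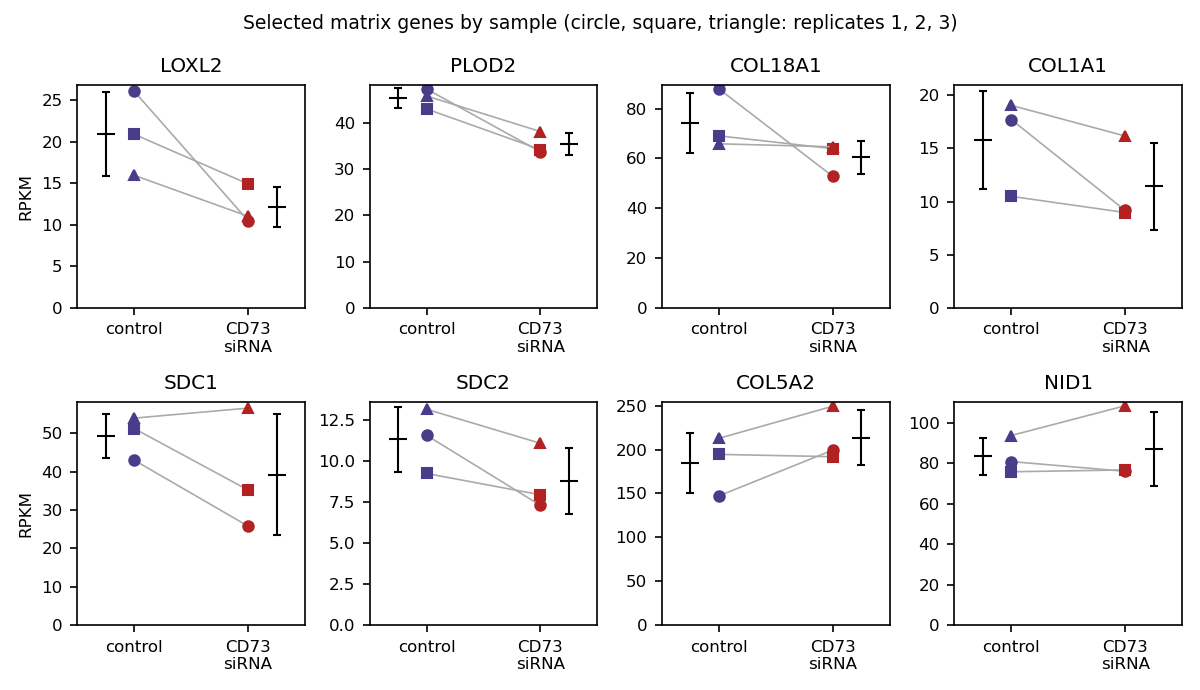
RPKM of LOXL2, PLOD2, COL18A1, COL1A1, SDC1, SDC2, COL5A2 and NID1 in each sample, with lines joining samples of the same number and the mean and SD (n = 3) beside each group; the axes start at 0. For LOXL2 and PLOD2 all 3 red points lie under all 3 blue points, and for COL5A2 and NID1 triangle 3 is the highest in both groups.

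LOXL2, PLOD2 and COL18A1 were the 3 of the 27 whose groups did not overlap with CD73 siRNA lower, against 8.07% of all tested genes, and 0 did so with CD73 siRNA higher, against 10.3%. COL18A1 differed by -0.29 on the log2 scale (95% interval -0.61 to 0.03, adjusted p = 0.449 by limma), and by -0.16 without control 1. Of the epithelial markers, the keratins KRT8 and KRT18 differed in the same direction. These genes overlap on opposite strands of chromosome 12, and it is not stated whether counting used strand. The exon bases they share were not worked out. KRT8 was at 45.4, 47.5 and 30.0 RPKM against 158, 72.0 and 83.6, a log2 difference of -1.27 (limma, adjusted p = 0.303), and KRT18 differed by -0.68 (limma, adjusted p = 0.303). They were the 2 of 8 epithelial markers, 7 of them tested, that passed an unadjusted p under 0.01. SOX9 lay the other way, at 53.6 to 55.5 RPKM in the CD73 siRNA samples and 45.4 to 51.8 in the controls. MUC1 and EPCAM were at 111% and 102% of control, and KRT19 and CDH1 at 79.2% and 83.5%. KRT7, not tested, was at 37.2% of control from 1 to 7 reads. The groups overlapped for MUC1, EPCAM, KRT19, CDH1 and KRT7. The summed level of the 8 was 126 to 160 RPKM in the CD73 siRNA samples and 190 to 301 in the controls, most of it from KRT8, KRT18 and SOX9. The part of the keratin difference in the matrix values was not tested.

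No other member passed the threshold. Without the block, COL1A1 differed by -0.44 (95% interval -1.06 to 0.18, limma adjusted p = 0.538), SDC1 by -0.39 (-0.97 to 0.19, adjusted p = 0.556) and SDC2 by -0.34 (-0.75 to 0.07, adjusted p = 0.475). Without CD73 siRNA sample 3, its highest value, SDC1 differed by -0.69 and passed an unadjusted p under 0.01, and without CD73 siRNA sample 1 it differed by -0.14. COL1A1 ranged from -0.69 (without CD73 siRNA sample 3 or control 2) to -0.29 (without control 3). AGRN differed by -0.26, but by -0.06 without CD73 siRNA sample 1 and by -0.45 without CD73 siRNA sample 3. COL7A1 differed by -0.24, and by -0.13 without control 1. LTBP3, at 9.30 ± 0.42 against 11.3 ± 2.52 RPKM (SD, n = 3 each), differed by -0.23, by -0.08 without control 1 and by -0.36 without control 3. In the other direction, COL3A1 differed by 0.22 (-0.41 to 0.84, limma adjusted p = 0.775), but by -0.03 without CD73 siRNA sample 3, by 0.005 without control 1 and by up to 0.45 without another sample. COL5A2 differed by 0.21 (-0.16 to 0.59, limma adjusted p = 0.619), and by 0.06 without control 1, 0.10 without CD73 siRNA sample 3 and 0.32 without control 3. NID1, FBLN1, LAMC1, PLOD1, LAMB2, LAMA5 and GPC1 differed by -0.17 to 0.05, with intervals that include 0.

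By group, all 4 tested lysyl oxidases and hydroxylases of the list had a log2 fold change below 0, with a median of -0.27. LOXL3, outside the list, differed by 0.055 (limma, adjusted p = 0.896). The 3 tested cell surface proteoglycans of the list also lay below 0, with a median of -0.34. The 4 laminin chains (median -0.09) and the 4 other collagens (median -0.10) lay just below 0, and the fibrillar collagens had 1 value below and 2 above it. Over all 27, 22 values lay below 0, or 81.5%, against 48.0% of all tested genes, and the median was -0.10, against 0.01. LOXL2 and PLOD2 were 2 of the 22. The plot of fold changes gives the interval of each gene.

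**Figure D3:**
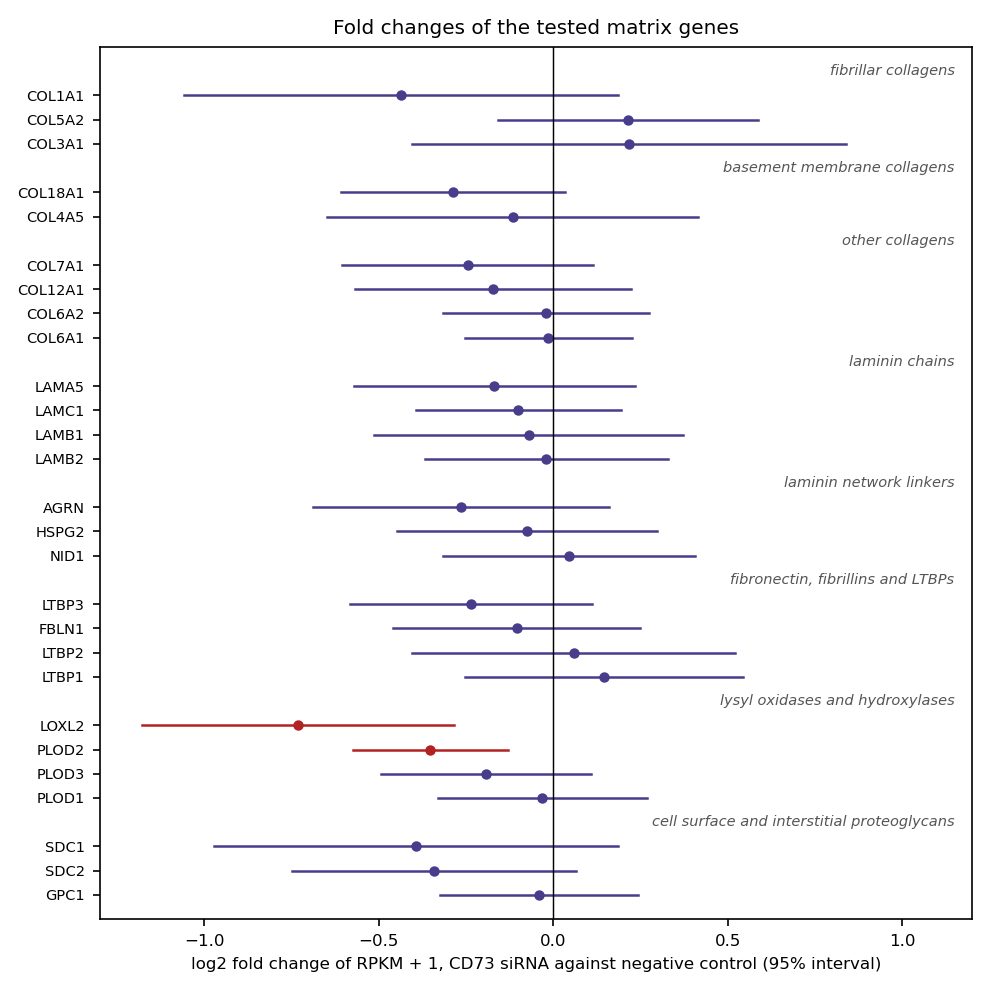
Log2 fold change of RPKM + 1, CD73 siRNA against negative control, with its 95% interval from limma without the block, for the 27 tested matrix genes, grouped by role; red marks an unadjusted p under 0.01. The intervals of LOXL2 and PLOD2 end at -0.28 and -0.13, and the intervals of the other 25 genes include 0.

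Compared within number, most of the shift came from number 1. The median difference over the 27 genes was -0.27 for number 1, -0.11 for number 2 and 0.05 for number 3, whereas over all tested genes it was 0.02, 0.00 and 0.01. Number 1 had the largest of the 3 differences in absolute size for 21 of the 27 genes, or 77.8%, against 58.9% of all tested genes. It includes control 1, the library that stood apart, and CD73 siRNA sample 1, in which NT5E was lowest. Without control 1 the median log2 fold change of the 27 genes was -0.04, and without CD73 siRNA sample 1 it was -0.06. Without any other single sample it was -0.21 to -0.15. The values below 0 numbered 18 without control 1, 19 without CD73 siRNA sample 1 and 18 to 23 without any other single sample. No test was made of the parts of these 2 samples in the shift.

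In 11 of the 27 genes the CD73 siRNA sample was lower in all 3 pairs, against 24.5% of all tested genes, and in 2 it was higher in all 3, against 27.0%. The 11 are COL1A1, COL18A1, COL6A2, COL7A1, LAMB1, LAMC1, LTBP3, LOXL2, PLOD2, PLOD3 and SDC2, and the other 2 are COL3A1 and LTBP1. LTBP1 differed by 0.15, 0.14 and 0.15 within the 3 numbers.

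**Figure D4:**
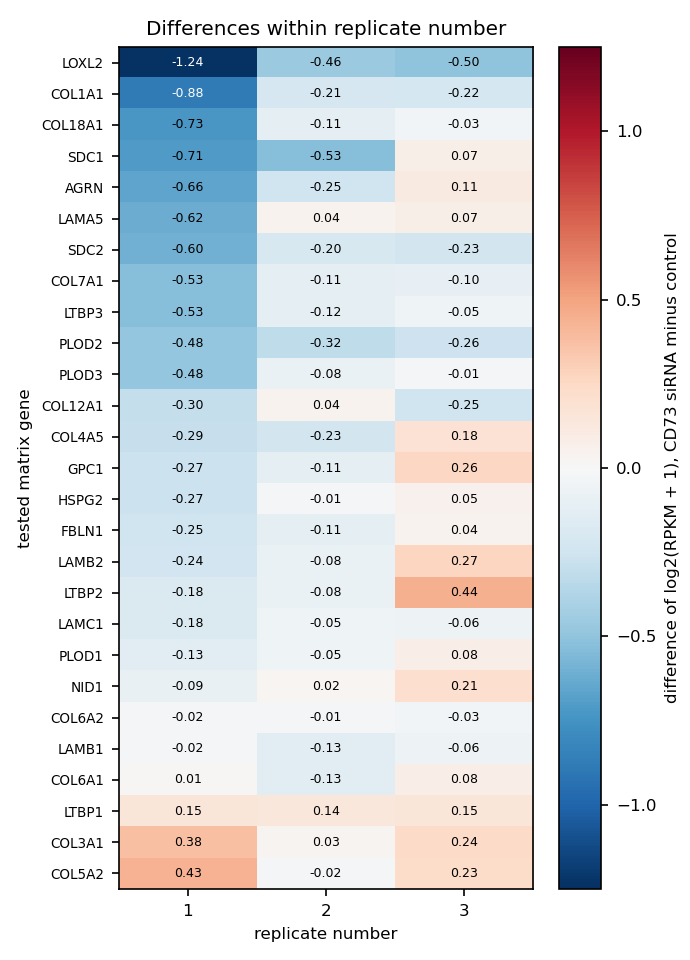
Difference of log2(RPKM + 1) between the CD73 siRNA sample and the control of the same number, for the 27 tested matrix genes ordered by number 1; blue is lower and red higher with CD73 siRNA. The column of number 1 runs from -1.24 (LOXL2) to 0.43 (COL5A2), and the column of number 3 holds both blue and red.

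With the number as a block in the fit, the same 2 members passed at an unadjusted p under 0.01, LOXL2 and PLOD2 (limma, adjusted p = 0.113 for each). The background of this fit was 7.57% in both directions, 3.30% for lower values, against 2 of 27, and 4.27% for higher values, against 0 of 27. COL1A1 (adjusted p = 0.158), SDC2 (adjusted p = 0.148) and SDC1 (adjusted p = 0.186 by limma) did not pass in this fit either, but their 95% intervals no longer included 0, at -0.78 to -0.09, -0.59 to -0.09 and -0.75 to -0.04. At an unadjusted p under 0.05 the blocked fit thus called 5 of the 27, all lower, against 10.2% of all tested genes, and 0 higher, against 13.2%. The block takes same-numbered samples as pairs, which the labels do not state.

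The number, which has 2 degrees of freedom against 1 for treatment, took a median of 63.5% of the sum of squares over the 27 genes, against 51.9% over all tested genes. Treatment took a median of 11.8% over the 27 genes, against 20.8% over all tested genes. It took the larger share in 5 of the 27, COL18A1, COL7A1, LOXL2, PLOD2 and PLOD3. The same count was not made over all tested genes, so it cannot be called few or many. In 11 of the 27 genes, number 3 was the highest of its group in both groups, against 17.8% of all tested genes, and in 6 it was the lowest in both, against 21.3%. COL1A1, COL3A1, COL5A2, COL6A2, LAMB1, LAMC1, NID1, LTBP1, PLOD1, SDC1 and SDC2 made up the 11. COL4A5, COL7A1, HSPG2, FBLN1, LTBP2 and LTBP3 made up the 6. All 3 tested fibrillar collagens were thus highest in number 3, and the collagen IV chain COL4A5 was lowest there. For LAMB1 the number took 96.5% and for PLOD1 89.2%, against 1.2% for treatment in PLOD1.

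The 26 untested genes lay between 0 and 1.39 RPKM. THBS2, a matricellular protein, was the one whose groups did not overlap, at 0.301, 0.179 and 0.26 RPKM in the CD73 siRNA samples and 0.0877, 0.171 and 0.156 in the controls, from about 9 to 31 reads. Within number 2 the difference was about 1 read. The share of all untested genes without overlap was not worked out, so 1 such gene among the 26 cannot be called few or many. No statement on a difference can be made at such levels.

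Of 104 other matrix genes on fixed lists, 49 were tested, and 0 passed an unadjusted limma p under 0.01 in either direction. With the block 2 passed, both lower, against the 3.30% given above. At an unadjusted p under 0.05 without the block, 5 were lower and 1 was higher, against 4.90% and 7.22% of all tested genes. With the block, 7 were lower and 6 were higher at that level, against 10.2% and 13.2%. The genes named next were chosen after their values were seen. TGM2, which crosslinks matrix proteins, differed by -0.61, -0.40 and -0.57 within number 1, 2 and 3 (limma, adjusted p = 0.376 without the block and adjusted p = 0.113 with it). CCN2, a matricellular growth factor, differed by -0.79, -0.54 and -0.40 (limma, adjusted p = 0.489 without the block and adjusted p = 0.113 with it). P4HB, the beta subunit of the prolyl hydroxylase that collagen needs to fold, was at 99.7 ± 5.74 against 82.4 ± 5.35 RPKM (SD, n = 3 each; limma, adjusted p = 0.357). COL11A1 differed by 0.93, 0.13 and 0.47 within number 1, 2 and 3 (limma, adjusted p = 0.477 without the block and adjusted p = 0.134 with it). Over the 49 the median log2 fold change was -0.07, and 31 values lay below 0.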

How the data were processed

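RNA-seq was analysed for 6 PANC-1 samples, 3 CD73 siRNA and 3 negative control, grouped and numbered by their titles. The authors deposited 1 normalised value per gene and sample, read here as RPKM, since 95.5 to 95.6% of the lower values became whole reads (tolerance 0.05 read) with merged exon lengths of GENCODE release 29. The submitters' processing notes name bcl2fastq, Bowtie2 2.2.3, HTSeq 0.6.0 and hg38; the annotation is not given in the sources used here. Symbols were found for 30384 of 30735 identifiers. COL5A2, COL4A1, COL4A2, COL4A5, COL13A1, COL17A1, LAMA3, HSPG2 and THBS2 gave values off whole reads by more than that, so their read numbers are approximate.

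Values were compared with limma 3.58.1 (trended empirical Bayes, R 4.3.3) on log2(RPKM + 1), with Benjamini-Hochberg adjustment. The 12527 genes that reached 1 RPKM in 3 samples or more were kept. The fit was also run on simulated data with no effect of the number and with changes larger than those of LOXL2 and PLOD2. That run cannot show how the fit performs on the values here. Same-numbered samples deviated together over 12527 genes (r = 0.20, 0.48 and 0.55 for number 1, 2 and 3), least for number 1. Over the 27 matrix genes r was 0.51, 0.63 and 0.87, but 0.52 for CD73 siRNA sample 2 with control 1. CD73 siRNA sample 1 was less like control 1 (chi-square of 40.5 per gene) than control 2 (23.9) or control 3 (28.3). The numbers were taken to pair the samples only in an alternative fit, and this pairing is least certain for number 1. The alternatives were the number as a block, a pseudocount of 0.1, no filter, a filter on the mean, quantile normalisation and each sample left out. Members and lists were chosen with earlier results of these data known. Genes named were members past the threshold, the 10 largest fold changes and the 12 highest levels. All chains of collagens I and IV and of laminin were named too. Other members were named by count or range. FN1 and THBS2, given by sample, and LTBP1, given within number, fall outside this rule. DCN, FAP, CD3E, PRSS1, CPA1 and CELA3A were not analysed here. Promoter windows came from RefSeq (GRCh38.p14).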

Additional observations from a re-analysis of the deposited data

How the results depend on the processing

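The 2 matrix genes past the threshold became 1 with no filter on low values (PLOD2) and 0 to 2 when 1 sample was left out. The count was 0 without CD73 siRNA sample 1 or without control 1, and 1 without CD73 siRNA sample 2 (LOXL2), control 2 (PLOD2) or control 3 (LOXL2). Without CD73 siRNA sample 3 it was 2, but PLOD2 and SDC1, not LOXL2. No matrix gene was higher under any alternative. Other matrix genes past the threshold numbered 0 to 1 higher and 0 to 1 lower with 1 sample left out, the higher one without control 2 and the lower ones without CD73 siRNA sample 2 or control 3. All genes past the threshold numbered 392, and 116 to 792 with 1 sample left out: 116 without CD73 siRNA sample 1, 188 without control 1, 258 without control 3 and 792 without control 2. With the replicate number as a block, which takes same-numbered samples as pairs, 948 genes and 2 other matrix genes passed, and the matrix genes remained LOXL2 and PLOD2. Across all alternatives the adjusted p of LOXL2 and PLOD2 ranged from 0.113 to 0.751.

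The number of matrix genes below 0, an alternative added after seeing the data, was 22 of 27, 35 of 53 with no filter, and 18 to 23 with 1 sample left out, where the median ranged from -0.21 to -0.04. Leaving out 1 sample turned the sign of 9 named genes with small differences. COL3A1 ranged from -0.031 to 0.454, NID1 from -0.121 to 0.132, FBLN1 from -0.234 to 0.046, PLOD1 from -0.151 to 0.036, LAMB2 from -0.118 to 0.105, LAMA5 from -0.332 to 0.003, GPC1 from -0.154 to 0.033, COL4A5 from -0.386 to 0.032 and LAMB1 from -0.22 to 0.073. The cause was not tested. NT5E kept its direction and passed under every alternative, at -1.44 to -0.90 with 1 sample left out. Depth limits the 26 untested genes, some of which have under 10 reads, and 3 samples a group limit the exact test to 0.1.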

Other observations

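Of 28 genes of collagen assembly and secretion, 23 reached the level needed for testing, as did 6 of 8 matrix receptors outside the integrins, beside 27 of the 53 matrix genes and 12527 of all 30735 genes. The difference between these shares was not tested. P4HB was at 76.2 to 105 RPKM, KDELR2, a retrieval receptor for endoplasmic reticulum proteins, at 75.3 to 83.3, and SERPINH1, the collagen chaperone, at 24.6 to 38.2. CD44, the hyaluronan receptor, was at 79.0 to 122 RPKM and DAG1, the dystroglycan that binds laminin and agrin, at 37.2 to 65.3. Of 22 further collagen and laminin genes, 4 were tested, COL11A1 and LAMC3 among them. LAMC3, an alternative gamma chain, was at 8.13 to 12.5 RPKM, below LAMC1 by a ratio of 3.2 to 4.3. These genes were named after their values were seen.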
